A study of Homo sapiens with 8 samples.

Results

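The comparison described here set the PDE10A knockout clone 2F4 (KO 2F4) of the human ovarian cancer cell line SKOV3 against the empty-vector clone 1B9 (EV 1B9). Its fold changes rest on 4 of the 8 libraries of the series, 2 from KO 2F4 and 2 from EV 1B9, picked by the names of the lines. The spread behind its p-values was estimated from all 8. A second knockout clone, 5H5 (KO 5H5), and the parental SKOV3 cells, each with 2 libraries, gave the remaining 4. All cells were untreated and grown in McCoy's medium holding 10% serum and antibiotics, and the labels call the libraries of a line biological replicates from distinct culture passages. Each of KO 2F4 and EV 1B9 is a single clone, so a difference between them is one between these clones, and what sets clones apart cannot be told apart from the loss of PDE10A. The title of the study names PDE10A as a target to suppress beta-catenin and RAS signalling, and this is the question the comparison bears on.

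PDE10A is a phosphodiesterase that hydrolyses the second messengers cyclic AMP and cyclic GMP. Cyclic AMP activates protein kinase A and the exchange factor EPAC, and protein kinase A phosphorylates the transcription factor CREB. Cyclic GMP activates its own kinase. Beta-catenin partners TCF factors at Wnt target genes, and RAS proteins signal through RAF and MEK to ERK, whose output includes the DUSP phosphatases that switch it off.

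Total gene counts were 19656693 and 17157246 in KO 2F4, against 28648044 and 21129548 in EV 1B9. Levels are given in CPM, a library's counts scaled to a common total, after TMM, which puts libraries on one scale by a trimmed mean of ratios, in the order library 1, library 2. The KO 2F4 libraries had a rank correlation of 0.912 with each other, and the EV 1B9 libraries 0.964. KO 2F4 library 1 was closer to both KO 5H5 libraries (0.944 and 0.939) and to parental library 2 (0.928) than to its own partner. Deviation from the mean of all libraries had a rank correlation with GC content of 0.05 and 0.34 in KO 2F4, against -0.42 and -0.43 in EV 1B9. A fit with offsets for GC content and length was therefore also made. It stands beside named genes in KO 2F4 against EV 1B9 wherever it ends a call or moves a value by over 1.5 times. Counts over lists stand beside those of that fit where it lowered either count or raised it by over 1.5 times. The epithelial markers KRT8, KRT18 and KRT19 were expressed in all 4 libraries, and PAX8, a Muellerian lineage factor, had 246 and 506 CPM in KO 2F4 against 226 and 291 CPM in EV 1B9. CDH1, the epithelial cadherin, had only 13 and 0 counts in KO 2F4 and 19 and 3 counts in EV 1B9. Of the same fixed list, MUC16 reached at most 2.69 CPM and WT1 at most 2.3 CPM. ERBB2 had 1336 and 1689 CPM in KO 2F4 and 2542 and 5333 CPM in EV 1B9. EPCAM had 0.785 and 0.146 CPM in KO 2F4 and 6.59 and 9.48 CPM in EV 1B9. CDH2, or N-cadherin, had 21.9 and 21.7 CPM in KO 2F4 and 20.4 and 27.6 CPM in EV 1B9.

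PDE10A itself was measured first. Its gene (chr6:165327287-165988078, GRCh38, minus strand) had 4 and 31 counts in KO 2F4, against 183 and 220 counts in EV 1B9. These are 0.196 and 2.26 CPM in KO 2F4 and 4.94 and 8.87 CPM in EV 1B9. The lines did not overlap, but KO 2F4 library 2 stood well above library 1 and close to the lower of the parental libraries (9.04 and 2.54 CPM). This fell short of the threshold (log2 fold change -2.52, SE 0.99, adjusted p = 0.104; edgeR quasi-likelihood model, adjusted after Benjamini and Hochberg over all tested genes). Without KO 2F4 library 2 it passed (log2 fold change -5.10, adjusted p = 0.017), and with offsets for GC content and length it was smaller (log2 fold change -1.54, adjusted p = 0.252). KO 5H5 held 0.229 and 0.438 CPM. The sources used here do not give the position of the edit in the gene, so counts over the whole gene do not show whether a functional transcript was left.

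Across 15551 tested genes, 2015 (13.0%) differed between KO 2F4 and EV 1B9 at an adjusted p under 0.05. Of these, 1068 (6.87% of tested genes) were higher and 947 (6.09%) were lower in KO 2F4, and 1880 were protein-coding. Among the called genes, 56 of the higher ones had no count in either EV 1B9 library, and 75 of the lower ones had none in either KO 2F4 library. The median absolute log2 fold change was 2.21 among higher and 2.52 among lower genes. The median over all tested genes was -0.13, and 0.07 with the offsets, a fit that called 1962 genes (12.6%; 7.11% of tested genes higher and 5.5% lower) and shared 1425 with the first. The number called depended on single libraries. It was 3257 without KO 2F4 library 1, 1035 without KO 2F4 library 2, 708 without EV 1B9 library 1 and 582 without EV 1B9 library 2. The higher genes made up 53% of calls, but 32.5% without EV 1B9 library 1, 44.2% without KO 2F4 library 1 and 42.0% when no filter on low counts was used. The replicates are passages of 1 line each, and 1 spread was shared over all 4 lines, KO 5H5 and the parental cells included. The p-values therefore measure the spread between cultures pooled over these lines. With the 4 libraries of KO 2F4 and EV 1B9 alone, 927 genes were called.

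**Figure D1:**
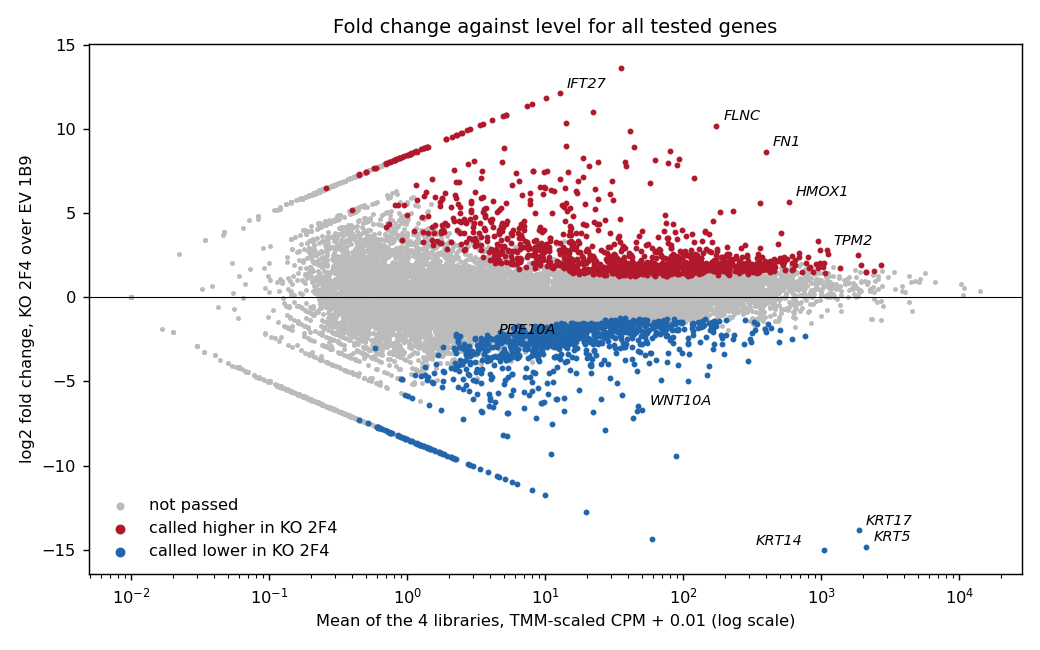
Log2 fold change of KO 2F4 over EV 1B9 (vertical axis) against the mean of the 4 libraries in TMM-scaled CPM plus 0.01 (horizontal axis, log scale) for the 15551 tested genes. Red points are the 1068 genes called higher and blue points the 947 called lower in KO 2F4; the straight outer lines are genes with no count in 1 of the lines, KRT5, KRT14 and KRT17 lie at the lower right, and PDE10A is among the grey genes that did not pass.

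The 12 largest rises among called protein-coding genes were mostly genes that EV 1B9 did not express at the depth reached. IFT27 (chr22:36758202-36776256, GRCh38, minus strand), a small GTPase of the ciliary transport machinery, had 21.5 and 29.3 CPM in KO 2F4 against 0 counts in both EV 1B9 libraries (at least 507-fold higher, adjusted p = 1.61e-05). CYP24A1 (chr20:54153449-54173973, GRCh38, minus strand), which degrades active vitamin D, had 17.1 and 23.7 CPM in KO 2F4 against 0 counts in EV 1B9 (at least 407-fold higher, adjusted p = 1.47e-05). Bounds of this kind set the group without counts at a floor of 3 counts over its libraries. RAC2, a small GTPase known mainly from blood cells that lies near IFT27 (chr22:37225261-37244448, GRCh38, minus strand), had 8.78 and 23.1 CPM in KO 2F4 against 0 in EV 1B9 (at least 299.5-fold higher, adjusted p = 5.09e-05). SYK (chr9:90801787-90898549, GRCh38, plus strand), a non-receptor tyrosine kinase, had 17.6 and 12 CPM in KO 2F4 against 0 in EV 1B9 (at least 316-fold higher, adjusted p = 3.09e-05). For these 4 genes the parental cells were not at 0. They held 10.8 and 6.61 CPM of IFT27, 4.37 and 2.64 CPM of CYP24A1, 3.01 and 4.9 CPM of RAC2 and 10.8 and 7.68 CPM of SYK. EV 1B9 was called lower than the parental cells for each (adjusted p = 1.83e-04, 2.62e-04, 6.37e-04 and 1.83e-04 in that order). KO 2F4 was called higher than the parental cells for CYP24A1 (log2 fold change 2.55, adjusted p = 0.0265) but not for IFT27 (log2 fold change 1.54, adjusted p = 0.189), RAC2 (log2 fold change 2.0, adjusted p = 0.139) or SYK (log2 fold change 0.68, adjusted p = 0.644). These comparisons share libraries with the main one.

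FLNC and the remaining rises included genes that KO 2F4 also held above the parental cells. FLNC (chr7:128830377-128859274, GRCh38, plus strand), an actin-crosslinking filamin of muscle, had 268 and 425 CPM in KO 2F4 against 0 and 0.645 CPM in EV 1B9 (log2 fold change 10.19, SE 1.1, adjusted p = 7.89e-05). The parental cells had 9.79 and 5.73 CPM, below KO 2F4 (log2 fold change 5.49, adjusted p = 0.00682) and above EV 1B9 (adjusted p = 0.0216). PHETA2, an endosomal adaptor, had 9.02 and 10.7 CPM in KO 2F4 against 0 in EV 1B9 (at least 199.9-fold higher, adjusted p = 2.04e-04) and 0.452 and 0.786 CPM in parental cells, from which KO 2F4 differed (log2 fold change 3.96, adjusted p = 0.0302). ADAMTS12, a secreted metalloprotease, had 7.75 and 6.41 CPM in KO 2F4 against 0 in EV 1B9 (at least 149-fold higher, adjusted p = 0.00217). It was nearly without counts in the parental cells too (0 and 0.37 CPM). GABRA3 and GABRQ, GABA-A receptor subunits that neighbour each other on chromosome X (chrX:152166234-152451358, GRCh38, minus strand; chrX:152638183-152657534, GRCh38, plus strand), rose together. GABRA3 had 7.94 and 13 CPM in KO 2F4 against 0 in EV 1B9 (at least 205-fold higher, adjusted p = 8.37e-05), and GABRQ had 4.36 and 9.03 CPM in KO 2F4 against 0 in EV 1B9 (at least 129-fold higher, adjusted p = 7.54e-04).

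PSG1, a pregnancy-specific glycoprotein, had 19.1 and 70.1 CPM in KO 2F4 against 0 and 0.0403 CPM in EV 1B9 (2449-fold higher, 95% counting interval 439 to 96807, adjusted p = 1.01e-04). The PSG genes are near copies of each other, so its level is uncertain. MARCHF4, a membrane ubiquitin ligase, had 4.95 and 6.41 CPM in KO 2F4 against 0 in EV 1B9 (at least 114-fold higher, adjusted p = 5.47e-04), and 14.5 and 4.07 CPM in the parental cells. SHISA9, a partner of AMPA receptors in neurons, had 6.96 and 3.86 CPM in KO 2F4 against 0 in EV 1B9 (at least 118-fold higher, adjusted p = 8.11e-05), and 4.67 and 5.97 CPM in the parental cells. KO 2F4 and parental cells therefore overlapped for MARCHF4 and SHISA9, with EV 1B9 the line apart.

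The 12 largest falls were led by keratins of basal and stratified epithelium. KRT14 (chr17:41582279-41586921, GRCh38, minus strand) had 2 and 0 counts in KO 2F4 (0.0981 and 0 CPM), against 1773 and 2406 CPM in EV 1B9 (34585-fold lower, 95% counting interval 9574 to 285586, adjusted p = 1.47e-05). KRT5 (chr12:52514575-52520687, GRCh38, minus strand), its type II partner in basal cells, had 0.245 and 0 CPM in KO 2F4 against 2444 and 6009 CPM in EV 1B9 (log2 fold change -14.81, SE 1.12, adjusted p = 1.40e-05). KRT17 (chr17:41619441-41624842, GRCh38, minus strand), a keratin of basal-like and wounded epithelium, had 0.441 and 0 CPM in KO 2F4 against 2039 and 5431 CPM in EV 1B9 (log2 fold change -13.84, SE 1.15, adjusted p = 1.47e-05). All 3 were also far above KO 2F4 in the parental cells, at 311 and 129 CPM for KRT14, 403 and 1056 CPM for KRT5 and 1453 and 605 CPM for KRT17. KO 2F4 was called lower than the parental cells for each (adjusted p = 3.61e-04, 1.59e-04 and 1.59e-04). EV 1B9 was called higher than the parental cells for KRT14 (log2 fold change 3.25, adjusted p = 0.0485), and did not pass for KRT5 (log2 fold change 2.53, adjusted p = 0.0744) or KRT17 (log2 fold change 1.86, adjusted p = 0.156). KRT9, a keratin of palm and sole epidermis next to KRT14 on chromosome 17, had 0 counts in KO 2F4 against 9.27 and 6.13 CPM in EV 1B9 (at least 91.1-fold lower, adjusted p = 0.00256).

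**Figure D2:**
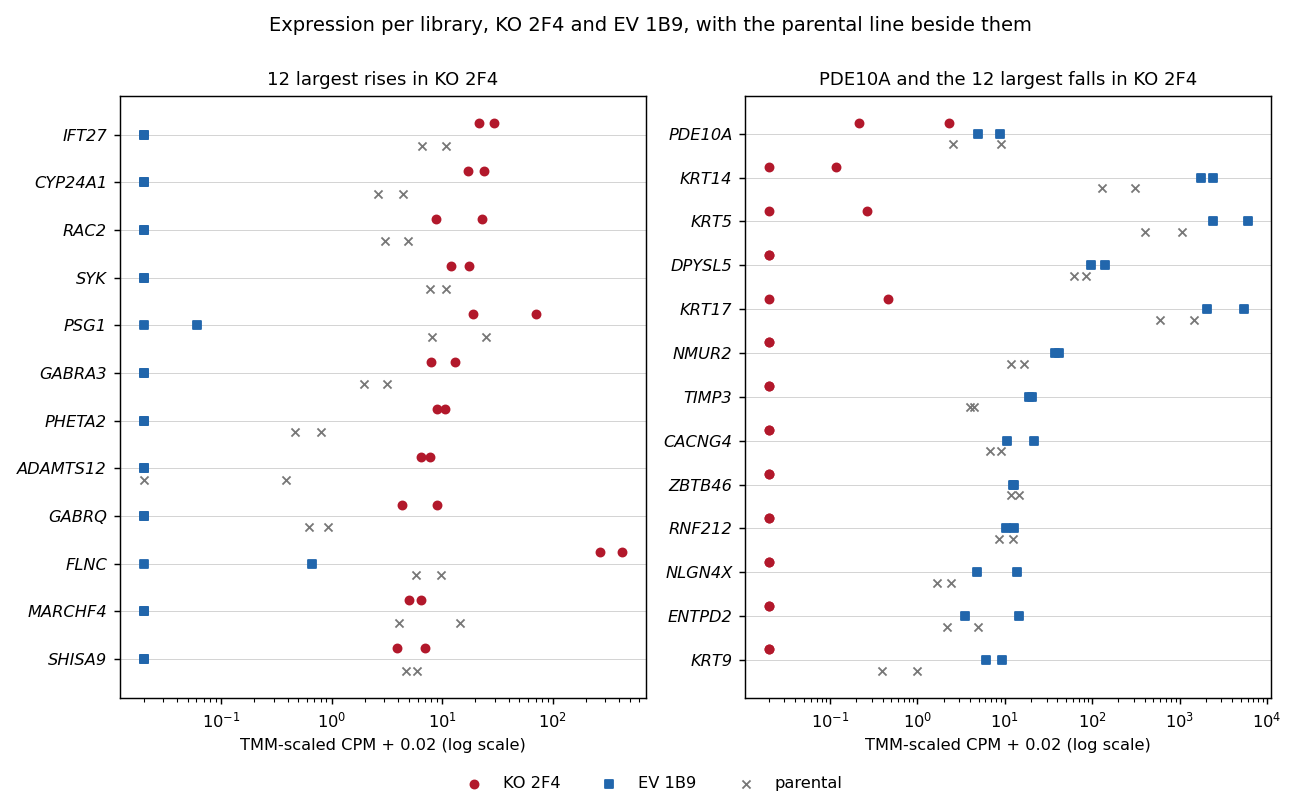
TMM-scaled CPM plus 0.02 on a log scale for each of the libraries of KO 2F4 (circles), EV 1B9 (squares) and the parental cells (crosses), with a gene per row: the 12 largest rises on the left, PDE10A and the 12 largest falls on the right. Points at 0.02 are libraries without a count. KO 2F4 and EV 1B9 overlap in no row, which was a condition of the rule that picked the rises and falls. In most rises EV 1B9 is at or near 0 while the parental cells hold counts.

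The other falls had no count in KO 2F4 and were expressed in EV 1B9. Levels in the parental cells are given only for DPYSL5 and ZBTB46. DPYSL5 (chr2:26847747-26950351, GRCh38, plus strand), a CRMP protein of growing axons, had 0 counts in KO 2F4 against 96.7 and 140.2 CPM in EV 1B9 (at least 1299-fold lower, adjusted p = 1.47e-05), and 84.1 and 62.7 CPM in parental cells. NMUR2, a neuromedin U receptor, had 0 counts in KO 2F4 against 37.4 and 41.5 CPM in EV 1B9 (at least 444-fold lower, adjusted p = 2.61e-05). TIMP3 (chr22:32801701-32863043, GRCh38, plus strand), an inhibitor of matrix metalloproteases, had 0 counts in KO 2F4 against 20.7 and 19 CPM in EV 1B9 (at least 228-fold lower, adjusted p = 2.75e-05). The rule that named these genes required levels that did not overlap between the lines. ZBTB46, a zinc finger transcription factor, had 0 counts in KO 2F4 against 12.8 and 12.3 CPM in EV 1B9 (at least 143-fold lower, adjusted p = 5.23e-05) and 11.8 and 14.5 CPM in parental cells. RNF212, a meiotic ligase, had 0 counts in KO 2F4 against 12.7 and 10.4 CPM in EV 1B9 (at least 134-fold lower, adjusted p = 1.52e-04). CACNG4, a calcium channel and AMPA receptor subunit, had 0 counts in KO 2F4 against 10.7 and 21.5 CPM in EV 1B9 (at least 171-fold lower, adjusted p = 0.00108). The neuroligin NLGN4X and the ectonucleotidase ENTPD2 also fell to 0 counts in KO 2F4. EV 1B9 had 4.73 and 13.6 CPM of NLGN4X (at least 94.4-fold lower, adjusted p = 0.0015) and 3.48 and 14.5 CPM of ENTPD2 (at least 89.8-fold lower, adjusted p = 0.00142).

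The promoters printed first are those of named genes whose window, from 250 bases before to 50 after the RefSeq start site, holds the CREB motif TGACGTCA, the element through which cyclic AMP acts on transcription. They are IFT27, FN1, DUSP1 and PPP1R15A, all called higher in KO 2F4. The last is FGF18, a called fall of the beta-catenin target list whose window holds the TCF motif CTTTGAT. That motif was also in the windows of MECOM, a called fall, and BAK1, a called rise. Windows were searched on both strands, 110 of the 164 named genes had one, and none of the motifs contains another. Called genes made up 150 of the 164, and their split into higher and lower among genes with a window was not counted. The directions of named genes holding a motif therefore cannot be weighed. The 250 bases before the start site are printed 5' to 3' on the gene's strand from RefSeq GRCh38.p14, in lower case with the motif in capitals.
IFT27 (chr22:36776120-36776369, minus strand): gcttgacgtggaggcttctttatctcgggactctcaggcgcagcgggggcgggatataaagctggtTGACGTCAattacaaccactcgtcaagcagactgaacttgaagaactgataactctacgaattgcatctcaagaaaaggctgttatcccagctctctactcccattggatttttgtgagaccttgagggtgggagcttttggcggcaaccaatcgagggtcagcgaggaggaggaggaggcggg
FN1 (chr2:215436069-215436318, minus strand): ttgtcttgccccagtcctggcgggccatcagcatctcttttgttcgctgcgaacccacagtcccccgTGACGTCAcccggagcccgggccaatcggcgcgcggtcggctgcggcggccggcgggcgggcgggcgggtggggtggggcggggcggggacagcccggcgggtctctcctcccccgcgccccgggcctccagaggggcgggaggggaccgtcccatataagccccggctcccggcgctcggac
DUSP1 (chr5:172771196-172771445, minus strand): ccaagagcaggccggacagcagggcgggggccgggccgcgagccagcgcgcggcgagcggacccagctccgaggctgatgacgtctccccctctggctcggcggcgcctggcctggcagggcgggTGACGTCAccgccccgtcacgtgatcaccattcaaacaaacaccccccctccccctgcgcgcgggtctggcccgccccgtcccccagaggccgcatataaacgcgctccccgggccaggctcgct
PPP1R15A (chr19:48872171-48872420, plus strand): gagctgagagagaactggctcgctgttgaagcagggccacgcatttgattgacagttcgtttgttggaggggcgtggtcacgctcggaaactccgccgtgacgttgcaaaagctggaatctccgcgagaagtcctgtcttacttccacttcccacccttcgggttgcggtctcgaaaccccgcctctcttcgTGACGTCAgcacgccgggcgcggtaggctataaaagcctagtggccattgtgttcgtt
FGF18 (chr5:171419397-171419646, plus strand): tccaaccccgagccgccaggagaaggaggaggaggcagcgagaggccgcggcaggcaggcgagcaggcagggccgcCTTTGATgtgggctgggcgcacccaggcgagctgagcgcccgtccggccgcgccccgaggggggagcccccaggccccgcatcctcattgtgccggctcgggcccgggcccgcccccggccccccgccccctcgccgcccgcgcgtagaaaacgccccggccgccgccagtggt
The motif starts 184 bases before the start site in IFT27, 183 in FN1, 125 in DUSP1, 58 in PPP1R15A and 174 in FGF18. The CREB motif was in 2.98% of the promoters of protein-coding genes called higher and in 1.83% of those called lower, against 3.20% over all tested protein-coding genes and 1.98% over all promoters in the table. The AP-1 motif TGANTCA, bound by FOS and JUN proteins, was in 5.97% of higher and 4.07% of lower genes, against 4.53% of tested genes and 7.76% of all promoters. It was in the windows of 10 named genes, of which 7 were called higher and 1 lower. The TCF motif was in 1.43% of higher and 1.69% of lower genes, against 1.34% of tested genes and 2.64% of all promoters. The CREB motif was thus rarer in the lower than in the higher genes, and in both rarer than over tested protein-coding genes. These shares describe the windows and were not tested.

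Among cyclic nucleotide phosphodiesterases, 0 of 13 tested genes rose and 2 fell (median log2 fold change -1.27; 0 higher and 1 lower with the offsets, median -0.42; 0 higher and 0 to 2 lower with 1 library left out), against 6.87% and 6.09% of all tested genes. The library left out is in turn each of those of KO 2F4, EV 1B9 and KO 5H5, here and for the lists that follow. PDE7A, specific for cyclic AMP, had 1.23 and 0.146 CPM in KO 2F4 against 8.64 and 10.8 CPM in EV 1B9 (log2 fold change -3.76, SE 0.93, adjusted p = 0.0196). PDE3B, inhibited by cyclic GMP, had 0.245 and 1.31 CPM in KO 2F4 against 4.35 and 9.19 CPM in EV 1B9 (log2 fold change -3.15, SE 0.93, adjusted p = 0.0408). Both calls were lost without either EV 1B9 library, that of PDE7A also without KO 2F4 library 2, and that of PDE3B without KO 2F4 library 1, without either KO 5H5 library and with the offsets (log2 fold change -2.25, adjusted p = 0.107). Of 36 cyclases, kinases and effectors of cyclic nucleotides, 5 rose and 4 fell (median -0.2; 5 higher and 1 lower with the offsets, median 0.2; 3 to 5 higher and 0 to 6 lower with 1 library left out). NPR1, the guanylyl cyclase that is the receptor of natriuretic peptides, had 26.4 and 28.5 CPM in KO 2F4 against 1.24 and 3.02 CPM in EV 1B9 (log2 fold change 3.69, SE 0.58, adjusted p = 0.0015). The parental cells, at 8.06 and 12.2 CPM, lay between. PRKAR1B, a regulatory subunit of protein kinase A, had 72.9 and 86.6 CPM in KO 2F4 against 10.7 and 10.8 CPM in EV 1B9 (log2 fold change 2.89, SE 0.43, adjusted p = 9.08e-04). RAPGEF3, which encodes EPAC1, had 129.96 and 206 CPM in KO 2F4 against 36 and 47.1 CPM in EV 1B9 (log2 fold change 2.01, SE 0.42, adjusted p = 0.00865), a call lost without EV 1B9 library 1.

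CREB3L1, a membrane-bound relative of CREB, had 38.4 and 319 CPM in KO 2F4 against 0.459 and 1.13 CPM in EV 1B9 (log2 fold change 7.84, SE 0.95, adjusted p = 1.87e-04). KO 2F4 library 2 was the higher by far, and the parental cells had 43.5 and 25.7 CPM. Of 25 cAMP-responsive and immediate-early genes, 3 rose and 0 fell (median 0.79; 3 higher and 2 lower with the offsets; 0 to 3 higher and 0 to 1 lower with 1 library left out). DUSP1, a phosphatase of MAP kinases whose promoter is printed above, had 159 and 79 CPM in KO 2F4 against 21.6 and 12.5 CPM in EV 1B9 (log2 fold change 2.8, SE 0.56, adjusted p = 0.00748). FOSL1, an AP-1 subunit, had 673 and 1033 CPM in KO 2F4 against 174 and 194 CPM in EV 1B9 (log2 fold change 2.22, SE 0.52, adjusted p = 0.0154). FOSL2, its close relative, had 236 and 328 CPM in KO 2F4 against 70.8 and 109.5 CPM in EV 1B9 (log2 fold change 1.64, SE 0.45, adjusted p = 0.03). All 3 calls were lost without EV 1B9 library 2, and those of FOSL1 and FOSL2 also without EV 1B9 library 1 or KO 2F4 library 2.

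Wnt ligands and receptors fell more often than they rose. Of 48 tested pathway components, 2 were called higher and 10 lower, and the list's median log2 fold change was near the -0.13 of all genes (-0.15; 1 higher and 9 lower with the offsets, median -0.24; 0 to 1 higher and 4 to 11 lower with 1 library left out). WNT10A had 0.49 and 1.46 CPM in KO 2F4 against 64.6 and 135 CPM in EV 1B9 (log2 fold change -6.73, SE 0.67, adjusted p = 3.94e-05). WNT7A had 33.9 and 61.6 CPM in KO 2F4 against 348 and 314 CPM in EV 1B9 (log2 fold change -2.8, SE 0.44, adjusted p = 0.00151). WNT9A had 10.004 and 4.0048 CPM in KO 2F4 against 55.8 and 59.2 CPM in EV 1B9 (log2 fold change -3.03, SE 0.49, adjusted p = 0.0019). These 3 genes encode secreted ligands, and SFRP1, a secreted antagonist of Wnt ligands, fell with them. SFRP1 had 2.55 and 2.04 CPM in KO 2F4 against 27.3 and 20.3 CPM in EV 1B9 (log2 fold change -3.37, SE 0.54, adjusted p = 0.00178). The parental cells lay between the clones or on the EV 1B9 side for each, at 67.6 and 49 CPM for WNT10A, 219.6 and 229 for WNT7A, 24.9 and 27 for WNT9A and 7.69 and 8.09 for SFRP1. CTNNB1, which encodes beta-catenin, had 69.7 and 57.8 CPM in KO 2F4 and 76.2 and 73.2 CPM in EV 1B9 (log2 fold change -0.23, SE 0.43, adjusted p = 0.748). It did not pass, and its sign turned with the offsets (log2 fold change 0.55).

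Target genes of beta-catenin and TCF also fell more often: 1 of 28 rose and 8 fell (median -0.87, with the offsets 1 higher and 7 lower; 0 to 2 higher and 1 to 7 lower with 1 library left out), with SP5 the rise. FGF18, a growth factor, had 13.9 and 16.2 CPM in KO 2F4 against 114 and 71.2 CPM in EV 1B9 (log2 fold change -2.62, SE 0.43, adjusted p = 0.00188). L1CAM, an adhesion molecule of invasive tumour edges, had 170.2 and 341 CPM in KO 2F4 against 702 and 1852 CPM in EV 1B9 (log2 fold change -2.32, SE 0.55, adjusted p = 0.0172). The parental cells, at 291 and 357 CPM of L1CAM, overlapped KO 2F4. NRCAM, a related adhesion molecule, had 4.36 and 1.17 CPM in KO 2F4 against 11.3 and 23.6 CPM in EV 1B9 (log2 fold change -2.63, SE 0.65, adjusted p = 0.02), and NOTUM, an enzyme that inactivates Wnt ligands, had 1 and 0 counts in KO 2F4 against 1.67 and 2.58 CPM in EV 1B9 (69.6-fold lower, 95% counting interval 12.3 to 2769, adjusted p = 0.019). The calls of L1CAM, NRCAM and NOTUM were lost without EV 1B9 library 2, those of NRCAM and NOTUM without KO 2F4 library 2, and that of NOTUM without EV 1B9 library 1. With the offsets NRCAM was smaller (log2 fold change -1.7, adjusted p = 0.0495). AXIN2, the usual readout of the pathway, did not pass (log2 fold change -0.56, adjusted p = 0.820). Nor did the proliferation targets. MYC had 56.9 and 49.4 CPM in KO 2F4 and 25.9 and 21.9 CPM in EV 1B9 (log2 fold change 1.15, SE 0.39, adjusted p = 0.0633). CCND1 had 128 and 58.6 CPM in KO 2F4 and 99.2 and 82.9 CPM in EV 1B9 (log2 fold change 0.04, SE 0.46, adjusted p = 0.962). BIRC5, which encodes survivin, had 276 and 194 CPM in KO 2F4 and 311 and 130.5 CPM in EV 1B9 (log2 fold change 0.09, SE 0.46, adjusted p = 0.913). The sign of CCND1 and BIRC5 turned with the offsets and in several other alternatives.

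Of 40 RAS and MAPK pathway components, 2 rose and 7 fell (median -0.87; 1 higher and 5 lower with the offsets, median -0.35; 1 to 3 higher and 1 to 8 lower with 1 library left out). NRAS had 12.6 and 11.9 CPM in KO 2F4 and 24.4 and 40.9 CPM in EV 1B9 (log2 fold change -1.41, SE 0.47, adjusted p = 0.0633), and did not pass, with a smaller value under the offsets (log2 fold change -0.25, adjusted p = 0.676). RRAS2, a RAS relative, had 19.5 and 18.3 CPM in KO 2F4 against 77 and 58.6 CPM in EV 1B9 (log2 fold change -1.84, SE 0.42, adjusted p = 0.0139), a call lost with the offsets (log2 fold change -0.72, adjusted p = 0.219), without KO 2F4 library 2 and without EV 1B9 library 1. Among receptors, FGFR3 had 9.51 and 2.26 CPM in KO 2F4 against 32.5 and 40.4 CPM in EV 1B9 (log2 fold change -2.62, SE 0.58, adjusted p = 0.0118), a call lost without EV 1B9 library 2. PDGFRB, the PDGF receptor beta, had 3.14 and 5.75 CPM in KO 2F4 against 0.027 and 0.121 CPM in EV 1B9 (log2 fold change 5.92, SE 0.89, adjusted p = 0.00114). It is also a marker of fibroblasts, whose marker list is given with the collagens. ERBB2, amplified in SKOV3, had 1336 and 1689 CPM in KO 2F4 and 2542 and 5333 CPM in EV 1B9 (log2 fold change -1.38, SE 0.47, adjusted p = 0.0673). It did not pass, but passed with the offsets (log2 fold change -1.75, adjusted p = 0.00508).

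Genes downstream of ERK went the other way: 7 of 33 feedback and output genes rose and 2 fell (median 1.1; 0 to 6 higher and 1 to 4 lower with 1 library left out). DUSP5, a nuclear ERK phosphatase, had 74.7 and 21.7 CPM in KO 2F4 against 7.83 and 7.78 CPM in EV 1B9 (log2 fold change 2.63, SE 0.55, adjusted p = 0.00924). DUSP4 had 84.8 and 37.1 CPM in KO 2F4 against 12.3 and 14.9 CPM in EV 1B9 (log2 fold change 2.17, SE 0.49, adjusted p = 0.0129). For both, the parental cells lay above EV 1B9, at 15.4 and 19.6 CPM for DUSP5 and 47.8 and 40.7 CPM for DUSP4. PLAUR, the urokinase receptor, had 74.9 and 50.4 CPM in KO 2F4 against 13.3 and 18 CPM in EV 1B9 (log2 fold change 2.0, SE 0.46, adjusted p = 0.0139). TRIB2, a pseudokinase, fell: it had 2.01 and 0.51 CPM in KO 2F4 against 24.5 and 21.7 CPM in EV 1B9 (log2 fold change -4.15, SE 0.77, adjusted p = 0.00452). The calls of DUSP4, DUSP5 and PLAUR were lost without either EV 1B9 library, and those of DUSP4 and DUSP5 also without KO 2F4 library 1. DUSP6, the cytoplasmic ERK phosphatase, did not pass (log2 fold change -0.55, adjusted p = 0.852). Lists overlap: of the called genes here, PLAUR is also in the protease list, FOSL1 in the immediate-early list, and IL11 and CXCL8 in the NF-kB list.

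**Figure D3:**
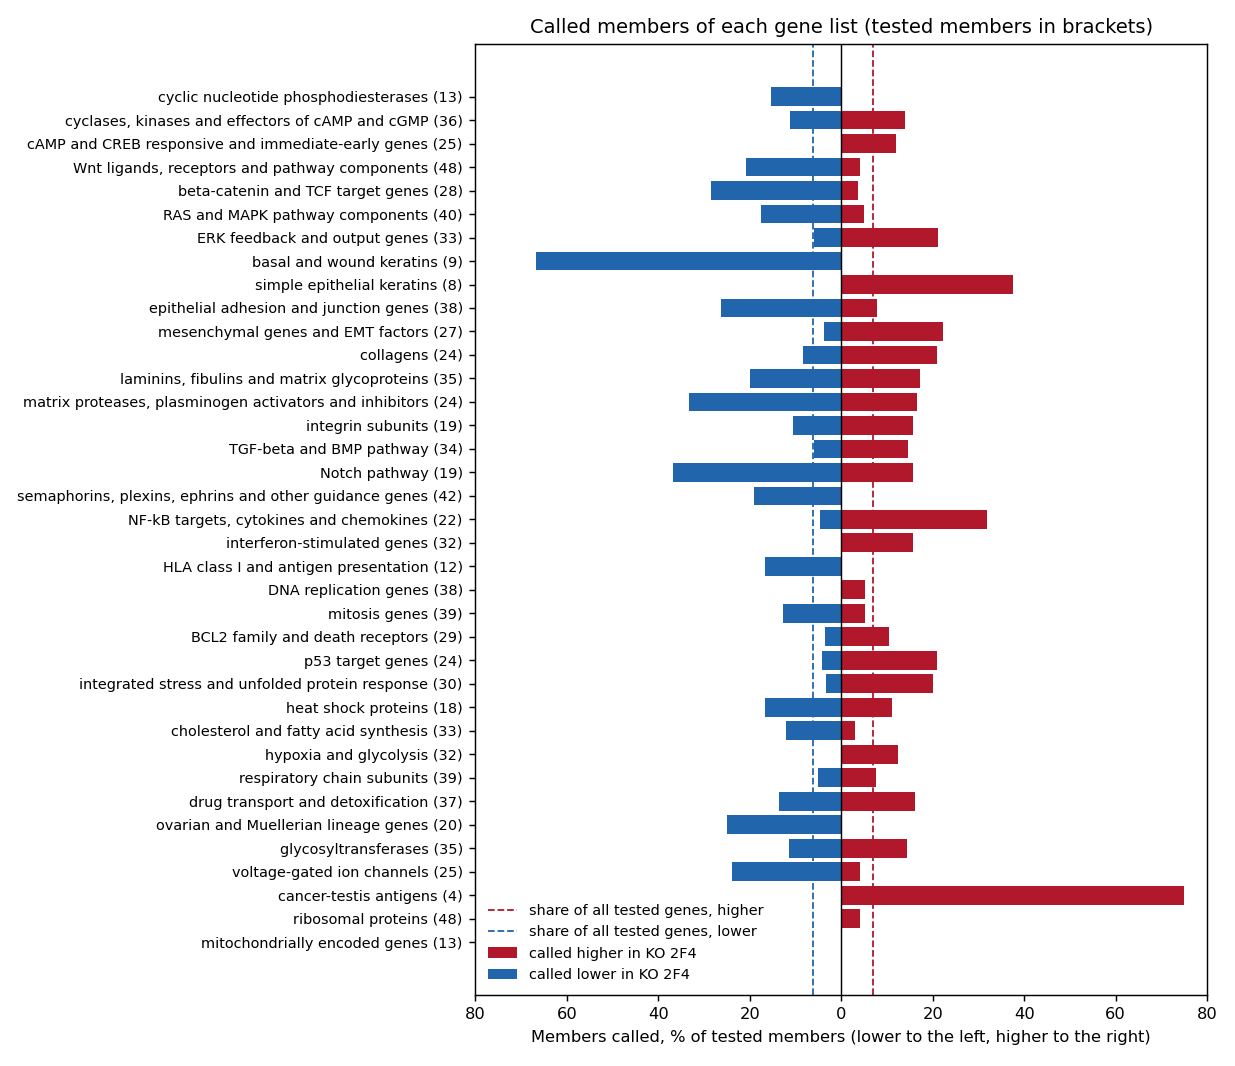
Called members of each gene list as a percentage of its tested members (horizontal axis; lower in KO 2F4 to the left in blue, higher to the right in red), with a list per row and its number of tested members in brackets. The dashed lines are the shares over all tested genes, 6.87% higher and 6.09% lower. Basal and wound keratins reach furthest to the left (6 of 9) and cancer-testis antigens furthest to the right (3 of 4). Of 34 cancer-testis antigens only these 4 passed the filter on counts, and they did so through lines other than EV 1B9.

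The keratins changed as 2 groups. Of 9 tested basal and wound keratins, 0 rose and 6 fell (median log2 fold change -9.3; 0 higher and 5 to 6 lower with 1 library left out). The median is -6.51 with genes lacking counts in 1 line at their bound. Their summed level ran from 27.1 to 40.7 CPM in KO 2F4 and from 6378 to 13943 CPM in EV 1B9. KRT6A, induced in wounds, had 1 and 0 counts in KO 2F4 against 9.67 and 34 CPM in EV 1B9 (663-fold lower, 95% counting interval 119 to 26208, adjusted p = 1.82e-04). KRT6A has near-identical copies and KRT14 and KRT17 have pseudogenes, so the split of reads within the family is uncertain. Of 8 simple-epithelial keratins, 3 rose and 0 fell (median 1.15; 2 higher and 0 lower with the offsets, median 0.41; 1 to 2 higher and 0 lower with 1 library left out). KRT18 had 965 and 1103 CPM in KO 2F4 against 179.9 and 201 CPM in EV 1B9 (log2 fold change 2.44, SE 0.57, adjusted p = 0.0156), with 1818 and 640.4 CPM in the parental cells. KRT8, its partner, had 3883 and 3256 CPM in KO 2F4 against 1026 and 1444 CPM in EV 1B9 (log2 fold change 1.53, SE 0.47, adjusted p = 0.0473). KRT81, a hair keratin with near copies, had 7.94 and 12 CPM in KO 2F4 against 0.027 and 0 CPM in EV 1B9 (592-fold higher, 95% counting interval 106 to 23468, adjusted p = 3.35e-05), while the parental cells held 310.5 and 119 CPM. The calls of KRT8 and KRT18 were lost without either EV 1B9 library, and that of KRT8 also with the offsets (log2 fold change 1.14, adjusted p = 0.0647) and without any single library of KO 2F4 or KO 5H5.

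Epithelial junction genes split. Of 38 tested, 3 rose and 10 fell (median -0.82; median with the offsets -0.45; 3 to 5 higher and 5 to 12 lower with 1 library left out). The tight-junction claudins CLDN4 and CLDN3 rose. CLDN4 had 226 and 250.3 CPM in KO 2F4 against 0.918 and 2.62 CPM in EV 1B9 (log2 fold change 7.09, SE 0.6, adjusted p = 1.47e-05). CLDN3 had 11.6 and 24.6 CPM in KO 2F4 against 0.27 and 0.0807 CPM in EV 1B9 (log2 fold change 6.56, SE 0.73, adjusted p = 9.61e-05). The parental cells lay above EV 1B9 for both, at 24.5 and 33.9 CPM for CLDN4 and 29.2 and 17.6 CPM for CLDN3. MAL2, a protein of apical transport, fell, with 2.26 and 1.75 CPM in KO 2F4 against 46.9 and 66.5 CPM in EV 1B9 (log2 fold change -4.81, SE 0.5, adjusted p = 5.65e-05). OVOL2, a transcription factor that keeps epithelial identity, had 2 and 0 counts in KO 2F4 against 8.35 and 5.16 CPM in EV 1B9 (121-fold lower, 95% counting interval 33.2 to 999, adjusted p = 6.03e-04). EPCAM, an epithelial adhesion molecule, had 0.785 and 0.146 CPM in KO 2F4 against 6.59 and 9.48 CPM in EV 1B9 (log2 fold change -4.04, SE 0.92, adjusted p = 0.0139), a call lost without KO 2F4 library 2 or EV 1B9 library 2. Over the fixed epithelial markers, 2 of 10 were called higher (KRT8 and KRT18) and 1 lower (EPCAM). With the offsets 1 was called higher and 2 lower.

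Mesenchymal genes rose more often than they fell, 6 against 1 of 27 (median -0.14; 6 higher and 2 lower with the offsets, median 0.36; 3 to 6 higher and 0 to 1 lower with 1 library left out). FN1, which encodes fibronectin, had 771 and 809.6 CPM in KO 2F4 against 1.11 and 2.86 CPM in EV 1B9 (log2 fold change 8.65, SE 0.86, adjusted p = 4.13e-05). MYL9, a myosin light chain, had 30.4 and 65.1 CPM in KO 2F4 against 0.891 and 0.766 CPM in EV 1B9 (log2 fold change 5.83, SE 0.55, adjusted p = 3.11e-05). TPM2, a tropomyosin, had 2036 and 1789 CPM in KO 2F4 against 269 and 284 CPM in EV 1B9 (log2 fold change 2.79, SE 0.43, adjusted p = 0.0014). In these genes it was EV 1B9 that stood apart from the parental cells, which held 189.7 and 769 CPM of FN1, 57.5 and 38.2 CPM of MYL9 and 1089.9 and 1005 CPM of TPM2. EV 1B9 was called lower than the parental cells for FN1 (adjusted p = 2.18e-04), MYL9 (adjusted p = 1.39e-04) and TPM2 (adjusted p = 0.0405). KO 2F4 did not pass against the parental cells for any of them (adjusted p = 0.687 for FN1, 0.998 for MYL9 and 0.365 for TPM2). SNAI1, a repressor of epithelial genes, had 6.23 and 12.3 CPM in KO 2F4 against 1.46 and 1.29 CPM in EV 1B9 (log2 fold change 2.74, SE 0.61, adjusted p = 0.0127), a call lost without KO 2F4 library 2 and without either EV 1B9 library.

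The matrix genes moved in both directions. Of 24 collagens, 5 rose and 2 fell (median -0.05; 5 higher and 4 lower with the offsets, median 0.02; 0 to 6 higher and 1 to 4 lower with 1 library left out), and of 35 laminins, fibulins and other glycoproteins, 6 rose and 7 fell (median -0.18; median with the offsets 0.06; 4 to 6 higher and 4 to 10 lower with 1 library left out). COL1A2, a chain of type I collagen, had 0.196 and 0.291 CPM in KO 2F4 against 10.8 and 26.7 CPM in EV 1B9 (log2 fold change -6.26, SE 0.8, adjusted p = 2.73e-04). COL12A1 had 29 and 40.6 CPM in KO 2F4 against 137 and 586 CPM in EV 1B9 (log2 fold change -3.38, SE 0.64, adjusted p = 0.00509), a call lost without EV 1B9 library 2. COL17A1, a hemidesmosome collagen, had 32.2 and 15.1 CPM in KO 2F4 against 3.59 and 3.23 CPM in EV 1B9 (log2 fold change 2.79, SE 0.56, adjusted p = 0.00748), and COL4A5, of basement membranes, had 3.83 and 5.53 CPM in KO 2F4 against 0 and 0.0807 CPM in EV 1B9 (139-fold higher, 95% counting interval 38 to 1162, adjusted p = 0.0099). Both of these rises were lost without EV 1B9 library 1, and that of COL17A1 without library 2 too. Among fibroblast markers, 1 of 6 tested rose (PDGFRB) and 1 fell (COL1A2). Their summed level ran from 7.36 to 45.3 CPM in KO 2F4 and from 35.9 to 151 CPM in EV 1B9, and COL3A1 was at 0 in all 4 libraries. Endothelial and neuronal markers gave 0 calls among 2 tested genes each by edgeR, DESeq2 and limma-voom, with 0 at an unadjusted p under 0.05. CDH5, CD3E, HBB, GAP43 and SNAP25 were at 0 in all 4 libraries, and PTPRC had 4 counts in EV 1B9 library 1 alone.

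Among matrix glycoproteins, the fibulins FBLN1, FBLN2 and EFEMP1 rose, FBLN5 and EFEMP2 did not pass, and the nidogen NID2 fell. FBLN2 had 94.9 and 152 CPM in KO 2F4 against 0.378 and 0.484 CPM in EV 1B9 (log2 fold change 8.16, SE 0.67, adjusted p = 1.40e-05). EFEMP1, or fibulin 3, had 8.39 and 23.8 CPM in KO 2F4 against 0.054 and 0.121 CPM in EV 1B9 (log2 fold change 7.51, SE 0.74, adjusted p = 3.83e-05). The parental cells again lay near KO 2F4, at 49.6 and 115 CPM of FBLN2 and 10.6 and 14.7 CPM of EFEMP1. NID2, a nidogen of basement membranes, had 0 and 0.583 CPM in KO 2F4 against 77.8 and 277 CPM in EV 1B9 (log2 fold change -9.43, SE 1.12, adjusted p = 1.58e-04) and 24.8 and 81.3 CPM in parental cells. MFAP5, a microfibril protein, had 16 and 20.1 CPM in KO 2F4 against 156 and 202 CPM in EV 1B9 (log2 fold change -3.31, SE 0.42, adjusted p = 2.56e-04). Matrix proteases and their inhibitors fell more often, 8 against 4 of 24 (median -1.21, with the offsets 4 higher and 6 lower; 1 to 4 higher and 3 to 7 lower with 1 library left out). MMP1, an interstitial collagenase, had 5.59 and 3.2 CPM in KO 2F4 against 209 and 60.3 CPM in EV 1B9 (log2 fold change -4.93, SE 0.62, adjusted p = 2.58e-04), and the parental cells, at 2.94 and 2.36 CPM, were below KO 2F4. MMP17, a membrane-anchored protease, had 0.245 and 0.0728 CPM in KO 2F4 against 6.78 and 11.2 CPM in EV 1B9 (log2 fold change -5.69, SE 0.96, adjusted p = 0.00243).

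Of 19 integrin subunits, 3 rose and 2 fell (median -0.64; 0 to 2 higher and 0 to 4 lower with 1 library left out). ITGA5, of the fibronectin receptor, had 228 and 274 CPM in KO 2F4 against 47.1 and 106 CPM in EV 1B9 (log2 fold change 1.71, SE 0.45, adjusted p = 0.0256), and ITGA4 had 2.6 and 7.65 CPM in KO 2F4 against 0.216 and 0.686 CPM in EV 1B9 (log2 fold change 3.51, SE 0.94, adjusted p = 0.0279). The laminin-binding pair fell. ITGB4 had 68.6 and 171 CPM in KO 2F4 against 313 and 713 CPM in EV 1B9 (log2 fold change -2.1, SE 0.54, adjusted p = 0.0224), and ITGA6 had 27.1 and 17.3 CPM in KO 2F4 against 47.9 and 97.6 CPM in EV 1B9 (log2 fold change -1.71, SE 0.46, adjusted p = 0.028). Each of these 4 calls was lost without at least 1 library: ITGA5 and ITGA4 without KO 2F4 library 2 or EV 1B9 library 1, ITGA4, ITGA6 and ITGB4 without EV 1B9 library 2, ITGA4 without KO 5H5 library 2, ITGA6 without KO 2F4 library 2 and ITGB4 without KO 2F4 library 1. ITGA6 also did not pass with the offsets (log2 fold change -0.9, adjusted p = 0.158).

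In the TGF-beta and BMP pathway, 5 of 34 genes rose and 2 fell (median -1.08; 5 higher and 6 lower with the offsets; 3 to 5 higher and 1 to 10 lower with 1 library left out). GDF15, a stress-induced cytokine, had 25.9 and 27.5 CPM in KO 2F4 against 0.621 and 0.645 CPM in EV 1B9 (log2 fold change 5.38, SE 0.67, adjusted p = 2.14e-04). INHBA, the activin A subunit, had 10.4 and 6.92 CPM in KO 2F4 against 0.351 and 0.928 CPM in EV 1B9 (log2 fold change 3.78, SE 0.63, adjusted p = 0.00221). ID4, an inhibitor of helix-loop-helix factors, fell, with 6.47 and 5.61 CPM in KO 2F4 against 50.5 and 33.1 CPM in EV 1B9 (log2 fold change -2.79, SE 0.58, adjusted p = 0.00891), a call lost without EV 1B9 library 1. The Notch pathway had more falls than rises, 7 against 3 of 19 (median -1.08; 2 to 5 higher and 2 to 7 lower with 1 library left out). JAG2, a ligand, had 23 and 22.1 CPM in KO 2F4 against 133 and 159 CPM in EV 1B9 (log2 fold change -2.69, SE 0.4, adjusted p = 0.00105). HES2, of the HES repressor family, had 0.834 and 0.874 CPM in KO 2F4 against 94.9 and 88.6 CPM in EV 1B9 (log2 fold change -6.74, SE 0.55, adjusted p = 1.40e-05). LFNG, the fringe glycosyltransferase that modifies Notch receptors, rose instead, with 18.2 and 39.6 CPM in KO 2F4 against 1.16 and 2.14 CPM in EV 1B9 (log2 fold change 4.14, SE 0.55, adjusted p = 4.11e-04). HEYL, a repressor induced by Notch, had 6.42 and 9.83 CPM in KO 2F4 against 0 and 0.323 CPM in EV 1B9 (log2 fold change 5.74, SE 1.09, adjusted p = 0.00505).

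Guidance genes gave 0 rises and 8 falls among 42 (median -0.56; 1 higher and 15 lower with the offsets; 0 to 1 higher and 4 to 11 lower with 1 library left out). EFNB2, the ephrin B2 ligand on chromosome 13, had 2.26 and 1.31 CPM in KO 2F4 against 19.9 and 23.3 CPM in EV 1B9 (log2 fold change -3.58, SE 0.57, adjusted p = 0.00156). SEMA6A had 0.539 and 0.364 CPM in KO 2F4 against 10.9 and 11.3 CPM in EV 1B9 (log2 fold change -4.58, SE 0.78, adjusted p = 0.00252), and SEMA3A had 0 counts in KO 2F4 against 2.9983 and 5.97 CPM in EV 1B9 (at least 47.7-fold lower, adjusted p = 0.0034). Both semaphorins repel growing axons in the nervous system. Voltage-gated channel genes fell too, 6 of 25 against 1 rise (median -0.27; 1 higher and 2 to 6 lower with 1 library left out). CACNA1H, a T-type calcium channel, had 0.294 and 0.437 CPM in KO 2F4 against 11.2 and 36.1 CPM in EV 1B9 (log2 fold change -6.02, SE 0.92, adjusted p = 0.00129). CACNA2D2, a calcium channel subunit, had 0 counts in KO 2F4 against 1.19 and 2.74 CPM in EV 1B9 (at least 20.6-fold lower, adjusted p = 0.0106), a call lost without EV 1B9 library 2. KCNMA1, the large-conductance potassium channel, was the rise, with 27.7 and 48.1 CPM in KO 2F4 against 0.837 and 0.766 CPM in EV 1B9 (log2 fold change 5.55, SE 0.65, adjusted p = 1.35e-04).

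Inflammatory genes were among the groups with the most rises: 7 of 22 NF-kB targets, cytokines and chemokines rose and 1 fell (median over all genes -0.13, list median 2.05; 8 higher and 2 lower with the offsets; 4 to 8 higher and 0 to 1 lower with 1 library left out). Their summed level ran from 692 to 785 CPM in KO 2F4 and from 236 to 272 CPM in EV 1B9. C3, the central complement component, had 86.6 and 63.2 CPM in KO 2F4 against 0.108 and 0.484 CPM in EV 1B9 (log2 fold change 8.05, SE 0.78, adjusted p = 3.56e-05). CXCL1, a neutrophil chemokine, had 61.2 and 29.1 CPM in KO 2F4 against 3.08 and 2.5 CPM in EV 1B9 (log2 fold change 4.01, SE 0.62, adjusted p = 0.00136). IL6 had 8.53 and 2.48 CPM in KO 2F4 against 0 and 0.0403 CPM in EV 1B9 (377-fold higher, 95% counting interval 66.9 to 14953, adjusted p = 0.00349). NFKB2, the precursor of the p52 subunit, had 145 and 192 CPM in KO 2F4 against 19.6 and 34.2 CPM in EV 1B9 (log2 fold change 2.64, SE 0.43, adjusted p = 0.00188). All 4 were also above EV 1B9 in the parental cells, which held 37.6 and 32.5 CPM of C3, 11.2 and 33 CPM of CXCL1, 0.979 and 0.879 CPM of IL6 and 72 and 73.9 CPM of NFKB2.

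Interferon-stimulated genes gave 5 rises and 0 falls among 32 (median 0.06; median with the offsets 0.44; 0 to 5 higher and 0 lower with 1 library left out). IFI35 had 105 and 191 CPM in KO 2F4 against 24 and 33.6 CPM in EV 1B9 (log2 fold change 2.36, SE 0.43, adjusted p = 0.00415), and ISG15, a ubiquitin-like modifier, had 58.8 and 175 CPM in KO 2F4 against 14.8 and 25.5 CPM in EV 1B9 (log2 fold change 2.54, SE 0.55, adjusted p = 0.0111). SP110, a nuclear body protein, had 10.7 and 9.32 CPM in KO 2F4 against 2.76 and 2.34 CPM in EV 1B9 (log2 fold change 1.97, SE 0.53, adjusted p = 0.0281), and the transcription factor IRF1 had 48.5 and 30.3 CPM in KO 2F4 against 17.5 and 10.4 CPM in EV 1B9 (log2 fold change 1.49, SE 0.44, adjusted p = 0.0399). All 4 calls were lost without EV 1B9 library 1, those of ISG15, SP110 and IRF1 also without EV 1B9 library 2, that of ISG15 without KO 2F4 library 2, that of IRF1 without KO 2F4 library 1, and those of SP110 and IRF1 without either KO 5H5 library. Of 12 antigen presentation genes, 0 rose and 2 fell (median -0.46; 1 higher and 2 lower with the offsets, median -0.9; 0 higher and 0 to 2 lower with 1 library left out). B2M, the light chain of HLA class I, had 20.6 and 10.049 CPM in KO 2F4 against 81.5 and 45.1 CPM in EV 1B9 (log2 fold change -2.04, SE 0.5, adjusted p = 0.0192), a call lost with the offsets (log2 fold change -1.16, adjusted p = 0.0884). HLA-F had 4.86 and 3.28 CPM in KO 2F4 against 11.7 and 16.1 CPM in EV 1B9 (log2 fold change -1.77, SE 0.5, adjusted p = 0.0344). Both were lost without KO 2F4 library 2 or EV 1B9 library 1, and HLA-F also without EV 1B9 library 2 or either KO 5H5 library. HLA genes share reads with near copies.

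The integrated stress response rose more often than it fell, 6 against 1 of 30 (median 0.15; 6 higher and 2 lower with the offsets, median -0.03; 3 to 6 higher and 0 to 4 lower with 1 library left out). TRIB3, a pseudokinase induced by ATF4, had 355 and 545 CPM in KO 2F4 against 11.8 and 14 CPM in EV 1B9 (log2 fold change 5.12, SE 0.52, adjusted p = 5.09e-05). PPP1R15A, which restores translation after stress and whose promoter is printed above, had 186 and 92.8 CPM in KO 2F4 against 14.7 and 15.5 CPM in EV 1B9 (log2 fold change 3.21, SE 0.46, adjusted p = 7.51e-04). PHGDH, the first enzyme of serine synthesis, had 144 and 142 CPM in KO 2F4 against 16.5 and 8.79 CPM in EV 1B9 (log2 fold change 3.5, SE 0.5, adjusted p = 7.89e-04). The parental cells lay above EV 1B9 in each, at 73.4 and 80.5 CPM for TRIB3, 48.7 and 58.8 for PPP1R15A and 123 and 124 for PHGDH. CHAC1, a glutathione-degrading enzyme, had 18.4 and 21.6 CPM in KO 2F4 against 1.67 and 1.77 CPM in EV 1B9 (log2 fold change 3.53, SE 0.83, adjusted p = 0.0156), a call lost without either EV 1B9 library. Of 18 heat shock genes, 2 rose and 3 fell (median -0.24; 2 higher and 0 lower with the offsets, median -0.06; 2 higher and 0 to 3 lower with 1 library left out). The small heat shock proteins HSPB8 and CRYAB rose. HSPB8 had 29.5 and 25.9 CPM in KO 2F4 against 0.486 and 0.0807 CPM in EV 1B9 (log2 fold change 6.5, SE 0.74, adjusted p = 1.03e-04), and CRYAB had 42.3 and 80.9 CPM in KO 2F4 against 2.9983 and 7.94 CPM in EV 1B9 (log2 fold change 3.5, SE 0.55, adjusted p = 0.00151). The falls of HSPH1 (log2 fold change -0.74, adjusted p = 0.184) and HSP90AA1 (log2 fold change -1.12, adjusted p = 0.083) did not pass with the offsets. HSPH1 had 22.1 and 17.8 CPM in KO 2F4 against 42.6 and 119 CPM in EV 1B9 (log2 fold change -2.02, SE 0.5, adjusted p = 0.0197), and HSP90AA1 had 186 and 219 CPM in KO 2F4 against 451 and 791 CPM in EV 1B9 (log2 fold change -1.62, SE 0.44, adjusted p = 0.0288). Both were also lost without KO 2F4 library 2 or EV 1B9 library 2, and HSP90AA1 without KO 2F4 library 1.

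Of 24 p53 target genes, 5 rose and 1 fell (median 0.17; 4 higher and 0 lower with the offsets; 2 to 5 higher and 0 to 2 lower with 1 library left out). SKOV3 is known to lack functional p53. CDKN1A, which encodes the cell cycle inhibitor p21, had 57 and 47.8 CPM in KO 2F4 against 7.91 and 5.4 CPM in EV 1B9 (log2 fold change 2.97, SE 0.56, adjusted p = 0.00482). FDXR, a mitochondrial reductase, had 46.8 and 78.9 CPM in KO 2F4 against 11.6 and 12.7 CPM in EV 1B9 (log2 fold change 2.37, SE 0.45, adjusted p = 0.0051), and the nuclease AEN had 42.6 and 25.8 CPM in KO 2F4 against 7.24 and 6.98 CPM in EV 1B9 (log2 fold change 2.27, SE 0.47, adjusted p = 0.00881). The calls of FDXR and AEN were lost without EV 1B9 library 1, and those of CDKN1A and AEN without library 2. Among BCL2 family genes and death receptors, 3 of 29 rose and 1 fell (median -0.13; 3 higher and 0 lower with the offsets, median 0.54; 0 to 5 higher and 0 to 4 lower with 1 library left out). CASP4, an inflammatory caspase, had 15.3 and 15.9 CPM in KO 2F4 against 2.84 and 4.07 CPM in EV 1B9 (log2 fold change 2.2, SE 0.56, adjusted p = 0.0221), and was larger with the offsets (log2 fold change 3.45, adjusted p = 5.87e-04). The pro-death gene BOK had 292 and 982 CPM in KO 2F4 against 112 and 180.3 CPM in EV 1B9 (log2 fold change 2.12, SE 0.59, adjusted p = 0.032), and BAK1 had 344 and 672 CPM in KO 2F4 against 115 and 185 CPM in EV 1B9 (log2 fold change 1.76, SE 0.51, adjusted p = 0.039). XIAP, a caspase inhibitor, had 2.6 and 1.09 CPM in KO 2F4 against 8.99 and 14.1 CPM in EV 1B9 (log2 fold change -2.62, SE 0.63, adjusted p = 0.0179). All 4 were lost without KO 2F4 library 2 and without EV 1B9 library 2, those of CASP4, BOK and BAK1 also without EV 1B9 library 1, and XIAP (log2 fold change -1.42, adjusted p = 0.0734) and BAK1 (log2 fold change 1.1, adjusted p = 0.0864) did not pass with the offsets.

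Cell cycle genes showed no common direction. Of 38 DNA replication genes, 2 rose and 0 fell (median -0.23; 2 higher and 1 lower with the offsets, median -0.08; 0 to 3 higher and 0 lower with 1 library left out). TK1, thymidine kinase, had 1066 and 1859 CPM in KO 2F4 against 329 and 402 CPM in EV 1B9 (log2 fold change 2.0, SE 0.5, adjusted p = 0.0197), and CDT1, an origin licensing factor, had 269 and 1126 CPM in KO 2F4 against 115 and 203 CPM in EV 1B9 (log2 fold change 2.13, SE 0.64, adjusted p = 0.0434). Both were lost without KO 2F4 library 2 and without either EV 1B9 library. Of 39 mitosis genes, 2 rose and 5 fell (median -0.1; 5 higher and 1 lower with the offsets, median 0.23; 1 to 3 higher and 0 to 6 lower with 1 library left out). AURKB, a mitotic kinase, rose in both fits, with 313 and 398 CPM in KO 2F4 against 57.5 and 64 CPM in EV 1B9 (log2 fold change 2.55, SE 0.44, adjusted p = 0.00271). TOP2A, topoisomerase II alpha, had 25 and 23.7 CPM in KO 2F4 against 69.7 and 155 CPM in EV 1B9 (log2 fold change -2.2, SE 0.45, adjusted p = 0.00823). ASPM, a spindle pole protein, had 0.539 and 1.6 CPM in KO 2F4 against 4.86 and 18.1 CPM in EV 1B9 (log2 fold change -3.45, SE 0.77, adjusted p = 0.0125), and CENPF, of kinetochores, had 1.52 and 5.1 CPM in KO 2F4 against 11.1 and 39.1 CPM in EV 1B9 (log2 fold change -2.94, SE 0.72, adjusted p = 0.0184). With the offsets none of these 3 falls passed, neither TOP2A (log2 fold change -0.95, adjusted p = 0.0792), ASPM (log2 fold change -1.89, adjusted p = 0.0619) nor CENPF (log2 fold change -1.63, adjusted p = 0.0957). They were also lost without EV 1B9 library 2.

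Of 33 genes of cholesterol and fatty acid synthesis, 1 rose and 4 fell (median -0.3; 0 to 1 higher and 0 to 5 lower with 1 library left out). SC5D had 9.61 and 5.97 CPM in KO 2F4 against 31 and 93.4 CPM in EV 1B9 (log2 fold change -2.99, SE 0.62, adjusted p = 0.00871), TM7SF2 had 9.27 and 27.5 CPM in KO 2F4 against 72.7 and 127 CPM in EV 1B9 (log2 fold change -2.44, SE 0.57, adjusted p = 0.0153), and SCD, the stearoyl-CoA desaturase, had 33.2 and 28.1 CPM in KO 2F4 against 90.031 and 107 CPM in EV 1B9 (log2 fold change -1.69, SE 0.4, adjusted p = 0.0164). SC5D and TM7SF2 act late in cholesterol synthesis, and SC5D was smaller with the offsets (log2 fold change -1.77, adjusted p = 0.0151). These 3 calls were lost without EV 1B9 library 2, and that of SCD also without KO 2F4 library 2. Hypoxia and glycolysis genes gave 4 rises and 0 falls among 32 (median 0.49; 3 higher and 1 lower with the offsets; 0 to 4 higher and 0 to 1 lower with 1 library left out). SLC16A3, a lactate exporter, had 628 and 1512 CPM in KO 2F4 against 192 and 271 CPM in EV 1B9 (log2 fold change 2.21, SE 0.51, adjusted p = 0.0152). ENO2 had 65.8 and 73.8 CPM in KO 2F4 against 15.9 and 19.4 CPM in EV 1B9 (log2 fold change 1.98, SE 0.44, adjusted p = 0.0113), and PFKM had 23.5 and 17.5 CPM in KO 2F4 against 5.7 and 4.27 CPM in EV 1B9 (log2 fold change 2.04, SE 0.48, adjusted p = 0.0155). ANGPTL4, an inhibitor of lipoprotein lipase, had 183 and 68.2 CPM in KO 2F4 against 23 and 44.6 CPM in EV 1B9 (log2 fold change 1.9, SE 0.58, adjusted p = 0.0475). All 4 rises were lost without either EV 1B9 library, that of SLC16A3 without KO 2F4 library 2, and that of ANGPTL4 without KO 2F4 library 1 and with the offsets (log2 fold change 1.55, adjusted p = 0.0958).

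Detoxification genes included some of the larger changes, 6 rises and 5 falls among 37 (median 0.19; 6 higher and 4 lower with the offsets, median 0.45; 3 to 6 higher and 2 to 5 lower with 1 library left out). HMOX1, the inducible haem oxygenase, had 1104 and 1172 CPM in KO 2F4 against 14.8 and 29.6 CPM in EV 1B9 (log2 fold change 5.68, SE 0.58, adjusted p = 5.23e-05), and 310.2 and 463 CPM in the parental cells. CYP1B1, which oxidises oestrogens and aromatic hydrocarbons, had 8.43 and 4.81 CPM in KO 2F4 against 141 and 276 CPM in EV 1B9 (log2 fold change -4.97, SE 0.58, adjusted p = 1.35e-04). ALDH3A1, an aldehyde dehydrogenase, had 12 and 7.14 CPM in KO 2F4 against 71.7 and 78.4 CPM in EV 1B9 (log2 fold change -2.97, SE 0.53, adjusted p = 0.00359). Respiratory chain subunits gave 3 rises and 2 falls among 39 (median -0.54; 1 higher and 3 lower with the offsets, median -0.11; 0 to 6 higher and 1 to 5 lower with 1 library left out). COX7A1, a muscle-type subunit of cytochrome oxidase, had 0.687 and 0 CPM in KO 2F4 against 23.6 and 17.7 CPM in EV 1B9 (log2 fold change -5.76, SE 0.93, adjusted p = 0.00177). COX6B2, a testis-type subunit, had 0 counts in KO 2F4 against 1.11 and 2.26 CPM in EV 1B9 (at least 17.8-fold lower, adjusted p = 0.0296). CYC1, cytochrome c1, had 928 and 2441 CPM in KO 2F4 against 335 and 487 CPM in EV 1B9 (log2 fold change 2.04, SE 0.58, adjusted p = 0.0354), and COX5B had 392 and 958 CPM in KO 2F4 against 208 and 225 CPM in EV 1B9 (log2 fold change 1.64, SE 0.49, adjusted p = 0.0417). The calls of COX6B2, CYC1 and COX5B were lost without KO 2F4 library 2 and without either EV 1B9 library, that of COX6B2 without either KO 5H5 library, and that of COX5B without KO 5H5 library 1 and with the offsets (log2 fold change 1.4, adjusted p = 0.0743).

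Of 48 ribosomal protein genes, 2 rose and 0 fell (median 0.35; 5 higher and 1 lower with the offsets; 0 to 3 higher and 0 to 1 lower with 1 library left out). RPS14 had 3456 and 2809 CPM in KO 2F4 against 1204 and 999 CPM in EV 1B9 (log2 fold change 1.51, SE 0.44, adjusted p = 0.0388), and RPL10 had 2527 and 3728 CPM in KO 2F4 against 1102 and 1106 CPM in EV 1B9 (log2 fold change 1.5, SE 0.45, adjusted p = 0.0428). Both were lost without KO 2F4 library 2 and without either EV 1B9 library, RPS14 also without KO 2F4 library 1, and ribosomal genes share reads with many pseudogenes. Of 13 mitochondrially encoded genes, 0 passed by edgeR's quasi-likelihood test, 2 had an unadjusted p under 0.05, 2 passed as higher by DESeq2 and 0 by limma-voom (median 0.64; 1 higher and 0 lower with the offsets, median 0.98; 0 higher and 0 lower with 1 library left out). MT-CO2 had 5531 and 6775 CPM in KO 2F4 and 2352 and 2719.7 CPM in EV 1B9 (log2 fold change 1.28, SE 0.48, adjusted p = 0.0931), and MT-ND3 had 1827 and 1584 CPM in KO 2F4 and 655 and 789 CPM in EV 1B9 (log2 fold change 1.24, SE 0.46, adjusted p = 0.0879). MT-ND3 passed with the offsets (log2 fold change 1.95, adjusted p = 0.01).

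Ovarian and Muellerian lineage genes gave 0 rises and 5 falls among 20 (median -1.04; 0 higher and 2 to 6 lower with 1 library left out). CD24, a surface glycoprotein of ovarian cancer, had 26.6 and 29.9 CPM in KO 2F4 against 182 and 196 CPM in EV 1B9 (log2 fold change -2.74, SE 0.41, adjusted p = 0.00111). MECOM, a transcription factor of the Muellerian lineage, had 8.04 and 10.6 CPM in KO 2F4 against 54.8 and 122 CPM in EV 1B9 (log2 fold change -3.25, SE 0.54, adjusted p = 0.00226). FOLR1, the folate receptor alpha, had 33.1 and 41.1 CPM in KO 2F4 against 114 and 169 CPM in EV 1B9 (log2 fold change -1.93, SE 0.41, adjusted p = 0.00953). The parental cells overlapped EV 1B9 for FOLR1 (107 and 137 CPM), lay between for CD24 (93.4 and 107 CPM) and lay nearer to KO 2F4 for MECOM (12.6 and 17.7 CPM). ESR1, the oestrogen receptor, had 0.196 and 2.4 CPM in KO 2F4 against 14.1 and 18.6 CPM in EV 1B9 (log2 fold change -3.7, SE 0.84, adjusted p = 0.014). The calls of FOLR1 and ESR1 were lost without EV 1B9 library 2, and that of ESR1 without EV 1B9 library 1.

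Glycosyltransferases included some of the clearest switches, 5 rises and 4 falls among 35 (median -0.28; median with the offsets 0.14; 3 to 5 higher and 2 to 5 lower with 1 library left out). GALNT14, which starts O-linked glycans, had 42.2 and 24.3 CPM in KO 2F4 against 0.486 and 0.323 CPM in EV 1B9 (log2 fold change 6.32, SE 0.61, adjusted p = 3.56e-05). B4GALNT1, the synthase of gangliosides GM2 and GD2, had 100.2 and 185 CPM in KO 2F4 against 6.81 and 6.41 CPM in EV 1B9 (log2 fold change 4.43, SE 0.47, adjusted p = 6.57e-05), with 8.66 and 9.53 CPM in the parental cells. MGAT3, which bisects N-glycans, fell to 0.392 and 0 CPM in KO 2F4, against 52.2 and 56 CPM in EV 1B9 (log2 fold change -7.89, SE 0.87, adjusted p = 8.37e-05). GALNT16 fell to 0.196 and 0 CPM in KO 2F4, against 13.5 and 20.6 CPM in EV 1B9 (log2 fold change -7.18, SE 0.87, adjusted p = 1.80e-04). The parental cells were on the EV 1B9 side for both falls, at 24.3 and 31.4 CPM of MGAT3 and 9.72 and 11.9 CPM of GALNT16. Of 34 cancer-testis antigens among the counted genes, only 4 passed the filter on counts, and of these 3 rose and 0 fell. The tested members summed to 0.363 to 0.864 CPM in EV 1B9 and to 159 to 228 CPM in KO 2F4. They thus passed the filter through lines other than EV 1B9, so their direction was largely fixed beforehand and says little of the list. The 3 are SPANX genes of chromosome X that are near-identical copies, so their reads cannot be assigned to a copy with certainty. SPANXB1 had 151 and 220.3 CPM in KO 2F4 against 0.864 and 0.363 CPM in EV 1B9 (log2 fold change 8.19, SE 0.67, adjusted p = 1.40e-05). SPANXD had 4.07 and 4.37 CPM in KO 2F4 against 0 in EV 1B9 (at least 86.3-fold higher, adjusted p = 0.00475), and SPANXC had 2.65 and 1.97 CPM in KO 2F4 against 0 in EV 1B9 (at least 48.9-fold higher, adjusted p = 0.0312). The calls of both were lost without EV 1B9 library 1, and that of SPANXC without EV 1B9 library 2 or either KO 5H5 library.

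Genes of chromosome 13 were lower in KO 2F4 as a group. Of 264 tested genes there, 0 were called higher and 60 (22.7%) lower, against 6.87% and 6.09% over all genes. Their median log2 fold change was -1.67, the lowest of any chromosome, and -1.03 with the offsets for GC content and length, under which 0 rose and 39 fell. With the offsets, the medians of 9 overlapping windows of 50 genes along the chromosome ran from -1.19 to -0.81. On other chromosomes 7 windows lay below the highest of these, down to -1.06. Per library, set against the mean of EV 1B9 on a log2(CPM + 0.5) scale, the median of its genes was -1.12 and -1.40 in KO 2F4, -1.15 and -0.78 in KO 5H5 and -0.93 and -0.65 in the parental cells. EV 1B9 was thus the high line among the 4 in these values, which carry no offsets. On the same scale chromosome 18 had -0.50 and -0.78 in KO 2F4, -0.73 and -0.41 in KO 5H5 and -0.74 and -0.41 in the parental cells. Its median for KO 2F4 against EV 1B9 was -0.15 with the offsets. No values with the offsets are given for the parental cells. KO 2F4 differed from KO 5H5 by a median of -0.36 (-0.07 with the offsets) and from the parental cells by -0.62. 

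Named after their values were seen, the chromosome 13 genes RB1, KLF5 and ITM2B are examples from the genes called lower there. RB1 (chr13:48303726-48599436, GRCh38), the retinoblastoma tumour suppressor, had 6.91 and 2.11 CPM in KO 2F4 against 15.7 and 41.9 CPM in EV 1B9 (log2 fold change -2.66, SE 0.67, adjusted p = 0.0213). The parental cells had 4.6 and 7.63 CPM, and the call was lost with the offsets (log2 fold change -1.39, adjusted p = 0.0652). KLF5, an epithelial transcription factor, had 11.6 and 8.3 CPM in KO 2F4 against 59.2 and 75.9 CPM in EV 1B9 (log2 fold change -2.76, SE 0.43, adjusted p = 0.00151), with 29.3 and 19.7 CPM in the parental cells. ITM2B, a membrane protein, had 73.7 and 66.8 CPM in KO 2F4 against 342 and 328 CPM in EV 1B9 (log2 fold change -2.25, SE 0.45, adjusted p = 0.00714), with 101 and 213 CPM in the parental cells. With the offsets KLF5 passed (log2 fold change -2.58, adjusted p = 0.00173) and ITM2B did not (log2 fold change -1.08, adjusted p = 0.0788). In each of these examples, both EV 1B9 libraries were above every library of the other lines. That did not hold for all genes called lower there. SHISA2 had 5.27 and 9.67 CPM in the parental cells against 4.4 and 3.91 CPM in EV 1B9. The share of genes with EV 1B9 above all other libraries was not counted. On the other side, chromosome 17 had a median of 0.49 (0.40 with the offsets), with 118 genes higher and 35 lower among 909. Chromosome 20 had a median of 0.33 (0.39 with the offsets), with 64 genes (14.9%) higher and 11 lower among 429. Chromosomes 4 and 18, at -0.70 and -0.81, came to -0.11 and -0.15 with the offsets.

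**Figure D4:**
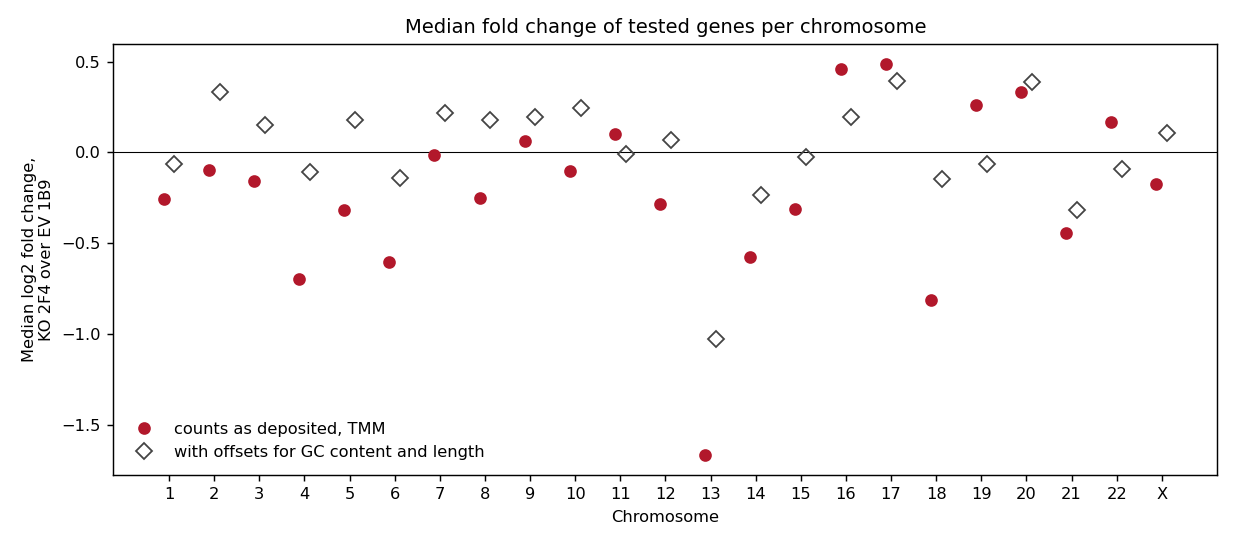
Median log2 fold change of KO 2F4 over EV 1B9 over the tested genes of each chromosome, from counts as deposited (red circles) and with offsets for GC content and length (open diamonds). Chromosome 13 is the lowest in both fits, at -1.67 and -1.03, and chromosomes 17 and 20 stay above 0.3 in both.

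KO 2F4 differed from the second knockout clone, KO 5H5, at 62 of 15551 genes (0.399%), 26 higher and 36 lower in KO 2F4. That count was 18 without KO 5H5 library 1, 10 without KO 5H5 library 2, 340 without KO 2F4 library 1 and 36 without EV 1B9 library 1, which enters only the shared spread. Among the genes named above, 15 were on this list. WNT10A had 0.49 and 1.46 CPM in KO 2F4 against 20.6 and 33.4 CPM in KO 5H5 (log2 fold change -4.84, SE 0.62, adjusted p = 0.00419), CD24 had 26.6 and 29.9 CPM in KO 2F4 against 230.4 and 318 CPM in KO 5H5 (log2 fold change -3.28, SE 0.42, adjusted p = 0.00419), and FLNC had 268 and 425 CPM in KO 2F4 against 14.2 and 6.31 CPM in KO 5H5 (log2 fold change 5.08, SE 0.85, adjusted p = 0.0236). For CD24 the 2 knockout clones lay on opposite sides of EV 1B9. KRT17 had 0.441 and 0 CPM in KO 2F4 against 112 and 196 CPM in KO 5H5 (log2 fold change -9.24, SE 1.0, adjusted p = 0.00143). KRT14, by contrast, had 0.0981 and 0 CPM in KO 2F4 and 0.515 and 0 CPM in KO 5H5 and did not differ past the threshold (adjusted p = 0.709). ANGPTL4 had 183 and 68.2 CPM in KO 2F4 against 10.5 and 3.39 CPM in KO 5H5 (log2 fold change 4.19, SE 0.65, adjusted p = 0.0137), and NPR1 had 26.4 and 28.5 CPM in KO 2F4 against 2.97 and 2.81 CPM in KO 5H5 (log2 fold change 3.25, SE 0.57, adjusted p = 0.0277). PDE10A itself did not separate the knockout clones (log2 fold change 1.79, SE 1.04, adjusted p = 0.562).

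**Figure D5:**
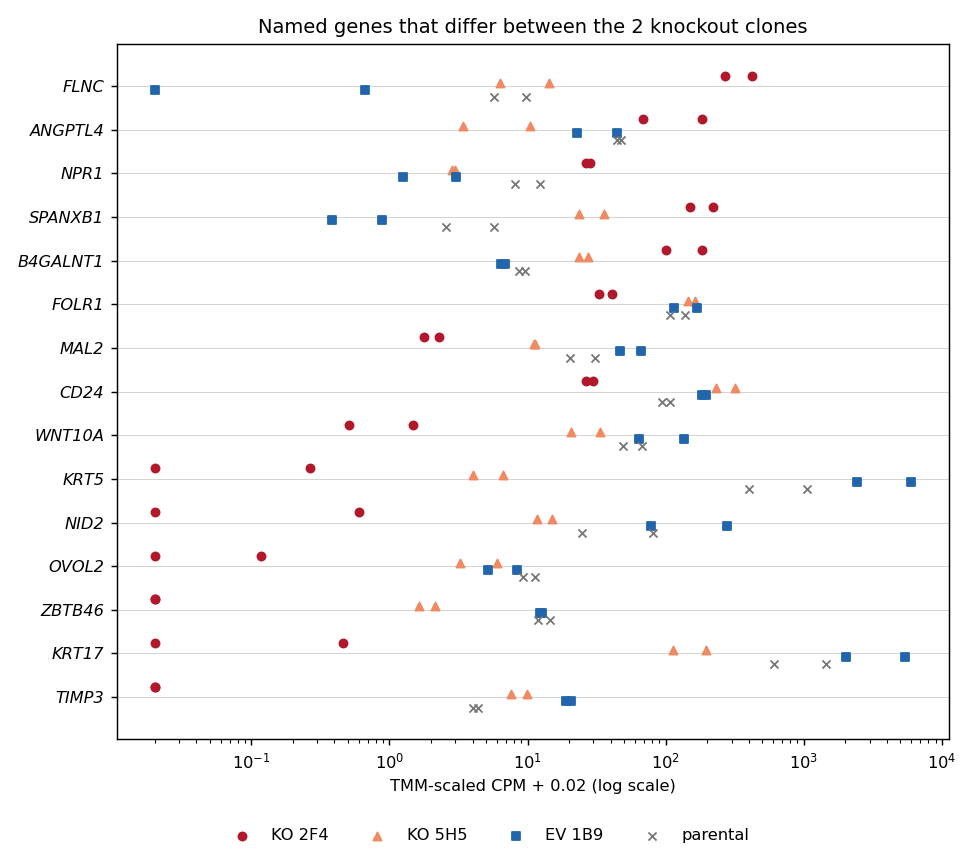
TMM-scaled CPM plus 0.02 (log scale) in the 2 libraries of KO 2F4, KO 5H5, EV 1B9 and the parental cells for the 15 named genes that passed the test between the knockout clones, ordered by that difference. FLNC has the largest fitted rise over KO 5H5, and TIMP3 and ZBTB46, with no count in KO 2F4, are among the 10 genes below it.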

How the data were processed

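RNA of RIN at least 7.0 was made into directional libraries, per the labels' protocols. The authors deposited whole-number read counts per gene for 67008 genes, with 5 summary lines that held 25.67% and 33.37% of counted reads in KO 2F4 and 29.76% and 26.02% in EV 1B9; these lines were left out. Per the submitters' processing notes, the tools were STAR 2.7.3a, DESeq2 1.26.0, bcl2fastq 2.18.0.12 and HTSeq 0.11.3, with the build GRCh38; the sources used here do not state their roles and settings, the strand setting or the annotation release. Overlapping genes, antisense pairs and near-identical copies are therefore uncertain. Names, coordinates and biotypes matched 58584 IDs (87.4%) in GENCODE release 29.

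Counts from all 8 libraries were fitted with 1 mean per line by edgeR 4.0.16 (R 4.3.3; TMM, minimum count 10, minimum total 15, robust quasi-likelihood test), with Benjamini-Hochberg adjustment over 15551 genes and calls at an adjusted p under 0.05. DESeq2 1.42.0 and limma-voom (limma 3.58.1) were alternatives, and offsets for GC content and length used natural splines with 5 degrees of freedom. Tables and figures were made with Python 3.11.15, pandas 2.3.3 and matplotlib 3.10.9. Library 2 of a line is the one whose title ends in UnTx, a suffix the labels do not explain. Same-numbered KO 2F4 and EV 1B9 libraries deviated together with a correlation of 0.085, so the numbers were not taken to pair them. Libraries of a line differed beyond counting noise (chi-square per degree of freedom 177 in KO 2F4 and 191 in EV 1B9), so none was counted as a repeat deposit. Intervals and floors of 3 counts cover counting error only; a ratio against 1 to 3 counts has a 95% Clopper-Pearson interval.

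Genes were named by a rule: PDE10A; 12 rises and 12 falls, the largest by fold change that were called, coded for protein, averaged 1 CPM or more and did not overlap between the lines; up to 4 called genes of each of 42 lists by smallest p; and 11 fixed genes. Some genes that this rule takes are not reported here. The comparison and the lists, 1282 of whose 1285 symbols were in the table, were chosen with earlier results of these data known. In data simulated for KO 2F4 against EV 1B9 over 14830 genes, 0 of 64 genes changed by 1 log2 unit were called, 12 of 64 changed by 2 and 46 of 63 changed by 4, with 7 of 14639 unchanged genes called. The simulation changed far fewer genes than were called in the data, gave the lines otherwise the same levels and held no trend with GC content. Its rates therefore need not hold for these data.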

Additional observations from a re-analysis of the deposited data

Results flagged for a closer look

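The differences below are between the 2 knockout clones, tested as KO 2F4 minus KO 5H5 in the same model of all 8 libraries, in which the shared EV 1B9 control cancels. Each gene passed edgeR's quasi-likelihood test at an adjusted p under 0.05 over 15551 genes, of which 62 (0.399%) did. Mean levels are in TMM-scaled CPM over 2 libraries a line.

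KO 2F4 was the higher clone for 5 named genes. FLNC averaged 347 CPM in KO 2F4 and 10.3 CPM in KO 5H5 (log2 fold change 5.08, SE 0.85, adjusted p = 0.0236). ANGPTL4, NPR1, SPANXB1 and B4GALNT1 had log2 fold changes of 4.19, 3.25, 2.64 and 2.48, with both KO 2F4 libraries above both KO 5H5 libraries in each.

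KO 2F4 was the lower clone for the other 10. Among the keratins, KRT17 had a log2 fold change of -9.24 and KRT5 one of -5.18. TIMP3 had no count in KO 2F4, which makes it at least 102-fold lower than in KO 5H5 (fitted value -10.58, which is no bound), and ZBTB46 was at least 20.5-fold lower by the same floor (fitted value -8.35). OVOL2 had 2 counts in KO 2F4 and was 73.4-fold lower, with a 95% counting interval of 20.04 to 610.2 (fitted value -6.20). NID2, WNT10A, CD24, MAL2 and FOLR1 had log2 fold changes of -5.70, -4.84, -3.28, -2.48 and -2.05.

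Reads without an annotated feature made up 5.505% of counted reads in KO 2F4 library 2, against 2.147% in KO 2F4 library 1, 1.699% and 1.475% in KO 5H5, 10.02% and 2.197% in the parental cells and 2.67% and 2.395% in EV 1B9. It was set apart because these reads enter no comparison and the share lies above both EV 1B9 libraries, but parental library 1 lies higher still. Their part in the results was not tested.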

How the results depend on the processing

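DESeq2 called 3390 genes (1834 higher, 1556 lower) against 2015, a test against an absolute log2 fold change of 1 called 685 (387, 298), the 4 libraries alone 927 (541, 386), and the 4 libraries with the offsets, an alternative added after seeing the data, 1128 (667, 461). Calls over the lists numbered 232, and 139 with the 4 libraries alone. For KO 2F4 against KO 5H5, 62 calls became 240 without a filter, 333 by DESeq2 and 149 with the offsets. PDE10A passed without a filter (log2 fold change -2.69) and by limma-voom (-3.40). The span of chromosome medians, 2.16, was 1.42 with the offsets. Leaving out 1 library, KO 5H5 libraries included (added after seeing the data), gave 582 to 3257 calls, 230 to 1441 higher and 241 to 1816 lower, 93 to 142 of the 150 called named genes, 10 to 340 calls between the knockout clones and PDE10A at -5.10 to -1.69. Leaving out 1 KO 2F4 or EV 1B9 library gave 95 to 266 calls over the lists and a chromosome span of 1.92 to 2.29. With the replicate number as a block, 1366 genes were called (723 higher, 643 lower), 31 between the knockout clones, and 13 of the 150 named calls were lost; the numbers share no stated origin. The sign of 4 genes that did not pass turned. CCND1 (0.04) came to -0.13 without a filter, -0.061 by limma-voom, -0.055 with the offsets, -0.049 with the block, -0.12 with both and -0.028 with the offsets on 4 libraries; BIRC5 (0.09) came to -0.096, and with the offsets to -0.094, -0.045 with the block too and -0.078 on 4 libraries. CTNNB1 (-0.23) came to 0.55 with the offsets, 0.54 with the block too and 0.72 on 4 libraries. Leaving out 1 library, CCND1 ran from -0.73 to 0.50, BIRC5 from -0.40 to 0.85 and VWF (1.42) from -4.52 to 2.37. The cause was not tested. All 24 genes with the largest changes, and 84 of the 150 called named genes in all, passed in each of 16 alternatives; the rest passed in fewer. Depth limits genes of few counts most.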
